A study of Mus musculus with 10 samples.

Results

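Double-positive (DP) thymocytes of mice that had lost the transcription factor E2A alone were set against DP thymocytes of control mice, over 13138 genes of 19937 that the arrays measured under a single gene symbol. A gene was represented by its probe set of highest mean and was tested where this set read at or above its array's 40th percentile in at least 2 of the 10 arrays of the study. That left 6799 genes out, and 11772 of the genes tested reached the 40th percentile in each of the 5 arrays compared. The control mice (WT, n = 3) were wild-type and cd4-cre+, and the mutant mice (E2AKO, n = 2) were E2Aflox/flox and Cd4-cre+. Both are separate mice of 8 weeks, 1 array per mouse. The study also held HEBflox/flox cd4-cre+ mice (HEBKO, n = 2) and E2Aflox/flox HEBflox/flox cd4-cre+ mice (DKO, n = 3), so every mouse compared here carried the Cre transgene. Cells were sorted by CD4 and CD8 to over 98% purity, about 1000000 cells gave 6 µg of RNA, and labelled cRNA was hybridised to Affymetrix arrays, whose median intensities ran from 92.6 to 98.6.

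E2A, encoded by Tcf3, and HEB, encoded by Tcf12, are E proteins, basic helix-loop-helix transcription factors that bind DNA as dimers at a short motif, the E-box (CANNTG). Id proteins lack the basic region and hold E proteins in dimers that do not bind DNA. In the thymus, E proteins are known for driving recombinase genes and for holding DP cells at the stage where the T cell receptor (TCR) alpha chain is rearranged, and E2A and HEB form dimers with each other. The Cd4 regulatory elements drive Cre from about the DP stage onward, so stages before it are not the target of the deletion. The comparison asks how large a change in transcripts follows when E2A is lost while HEB remains.

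The RefSeq promoter windows (GRCm38.p6) of 4 genes on which the results turn follow, each holding the 250 bases before the transcription start, 5′ to 3′ on the gene's strand, with every CANNTG in capitals. Rag1 and Rag2 encode the subunits of the recombinase, and Plxnd1 stood farthest from WT in the list of 29 DP-stage genes described further on. Cldn4 had the smallest p of the genes tested, with sex-linked, clone, predicted and Rik genes passed over. The 4 were chosen after their values were seen.
Rag1, chr2:101649533-101649782, minus strand: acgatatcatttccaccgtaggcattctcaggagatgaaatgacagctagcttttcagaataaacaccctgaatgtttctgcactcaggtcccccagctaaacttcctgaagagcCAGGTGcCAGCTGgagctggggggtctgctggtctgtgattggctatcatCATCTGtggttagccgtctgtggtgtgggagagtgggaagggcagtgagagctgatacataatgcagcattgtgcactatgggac
Rag2, chr2:101624462-101624711, plus strand: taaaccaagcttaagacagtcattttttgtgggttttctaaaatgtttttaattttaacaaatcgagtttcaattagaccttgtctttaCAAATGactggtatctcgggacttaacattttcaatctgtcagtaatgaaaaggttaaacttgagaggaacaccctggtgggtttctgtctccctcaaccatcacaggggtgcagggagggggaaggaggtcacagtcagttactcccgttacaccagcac
Plxnd1, chr6:115995006-115995255, minus strand: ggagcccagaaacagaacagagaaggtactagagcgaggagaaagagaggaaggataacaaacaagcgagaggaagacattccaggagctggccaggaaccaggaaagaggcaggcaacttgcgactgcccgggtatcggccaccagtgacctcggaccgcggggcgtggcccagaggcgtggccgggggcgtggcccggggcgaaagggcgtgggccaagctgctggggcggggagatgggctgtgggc
Cldn4, chr5:134946935-134947184, minus strand: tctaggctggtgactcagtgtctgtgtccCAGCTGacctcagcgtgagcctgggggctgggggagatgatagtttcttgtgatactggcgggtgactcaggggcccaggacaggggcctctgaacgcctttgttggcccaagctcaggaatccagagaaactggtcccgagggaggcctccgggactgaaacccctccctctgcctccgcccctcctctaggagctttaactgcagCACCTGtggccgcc

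The Rag1 window held CAGGTG 135 bases, CAGCTG 128 bases and CATCTG 85 bases before the start. The Rag2 window held CAAATG 161 bases before the start, and the Plxnd1 window held no CANNTG. The Cldn4 window held CAGCTG 221 bases and CACCTG 14 bases before the start. The motif is its own class on both strands and is common, since 66.2% of all 32851 windows of this length held at least 1. E proteins are known to prefer the forms CAGCTG and, read on either strand, CAGGTG. A preferred form stood in 27.7% of all windows. Of the 29 DP-stage genes described next, 25 matched a window. Their 48 windows, with more than 1 for genes with several starts, held CANNTG in 36 and a preferred form in 17. Of the 13111 windows of all tested genes, 59.0% held CANNTG and 26.9% a preferred form. Genes with several starts count more than once in both sets, and the difference was not tested.

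The targeted transcript was lower in both E2AKO mice. Tcf3 read 9.65, 9.85 and 9.63 (log2 intensity) in WT 1 to 3 and 9.23 and 9.12 in E2AKO 1 and 2. Neither E2AKO array reached any WT array. The difference, E2AKO minus WT as throughout, was -0.54 ± 0.13 (log2, SE from limma), which put Tcf3 at 68.9% of WT with a 95% interval of 56.8 to 83.5%. With sex-linked, clone, predicted and Rik genes passed over, it had the fourth smallest p of the genes tested. It still missed the test over all genes (limma adjusted p = 0.998). Which Tcf3 exons the loxP sites flank, and which exons the probe set reads, is not given in the sources used here, so the remaining signal cannot be read as remaining E2A. Tcf12, the partner, read 11.91, 11.74 and 11.86 in WT and 12.00 and 11.87 in E2AKO, overlapping groups with a difference of 0.10 ± 0.12. A rise of Tcf12 beyond 1.28-fold lay outside its 95% interval, and so did a fall beyond 1.11-fold.

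No gene passed the test for E2A loss alone. Of 13138 genes, 0 were called at an adjusted p under 0.05 (limma, Benjamini-Hochberg), or 0%, and the smallest adjusted p was 0.998. An unadjusted p under 0.05 was found for 418 genes, 3.18% of those tested, with 145 higher and 273 lower in E2AKO. At that threshold 657 genes would be counted by chance alone. The middle 95% of all differences ran from -0.27 to 0.26 log2 units around a median of -0.02. Differences past 1.5-fold were few, 21 higher and 14 lower, and 4 genes differed by over 2-fold.

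A difference that is not called may still be large, so each gene was also tested for lying inside fixed bounds, by 2 one-sided tests against each bound with adjustment over all genes (an equivalence test). By that test 13082 genes, 99.6%, differed by less than 2-fold, and 12559, 95.6%, by less than 1.5-fold. Among the 11772 genes above the 40th percentile in all 5 arrays the counts were 11730 and 11299. For the median gene, a change beyond 1.30-fold in either direction lay outside the 95% interval, and for 95% of genes a change beyond 1.56-fold did. These sizes are on the array scale, which understates changes of genes near background.

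**Figure D1:**
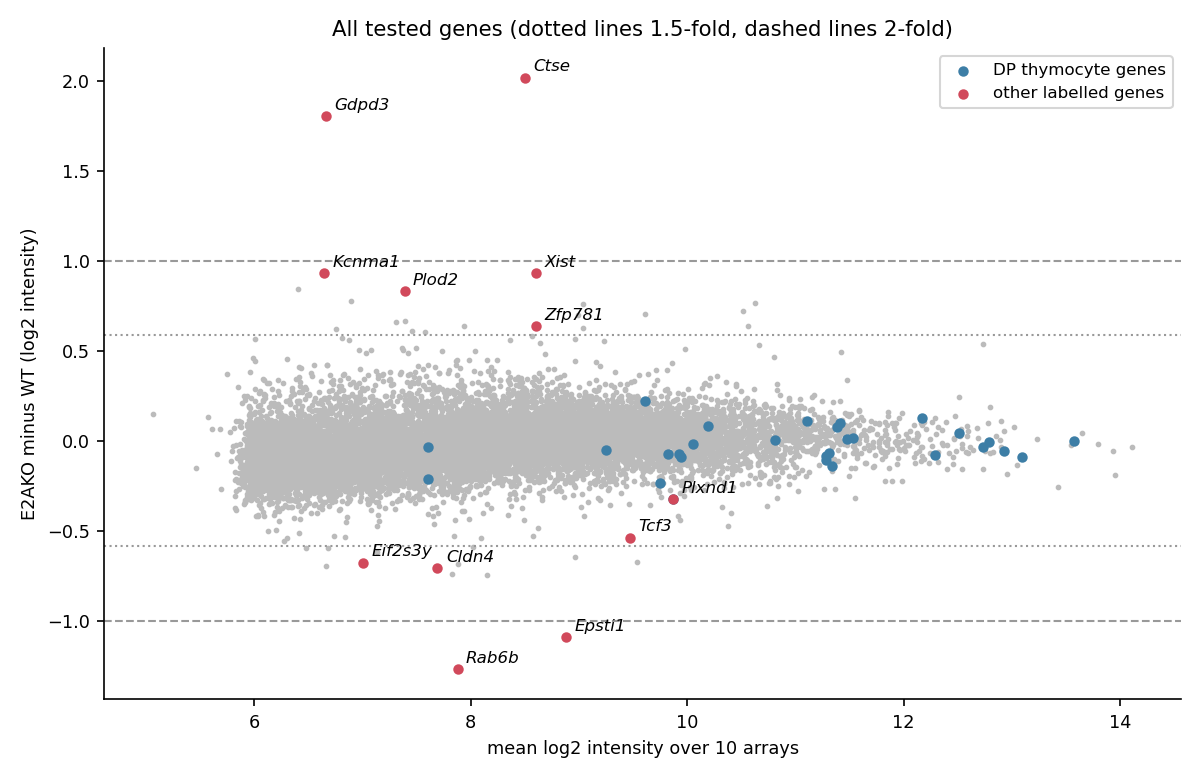
Each point is 1 of the 13138 genes tested, with its mean log2 intensity over 10 arrays on the horizontal axis and its difference, E2AKO minus WT in log2 intensity, on the vertical axis; DP-stage genes are blue and other labelled genes red. The 29 DP-stage genes lie between -0.32 and 0.22, inside the dotted 1.5-fold lines, and 4 genes lie beyond the dashed 2-fold lines.

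Genes that mark the DP stage were the members of most interest. A list of 32 had been drawn up with earlier results of these data known. Of these, 29 were tested, and all 29 reached the 40th percentile in every one of the 5 arrays. The others were not analysed here. None of the 29 was called, against 0% of all genes, and 1 had an unadjusted p under 0.05. Their differences ran from -0.32 to 0.22 with a median of -0.03, beside -0.02 over all genes. All 29 were within 2-fold by the equivalence test, and 27 were within 1.5-fold, with Cd5 and Id3 as the exceptions. The size of change outside the 95% interval ran from 1.16-fold for Satb1 to 1.72-fold for Id3, with a median of 1.28-fold. Each interval is that of its own gene and is not widened for the number of genes. With 99% intervals, 28 of the 29 stayed inside 2-fold, the exception being Id3, and 19 stayed inside 1.5-fold.

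**Figure D2:**
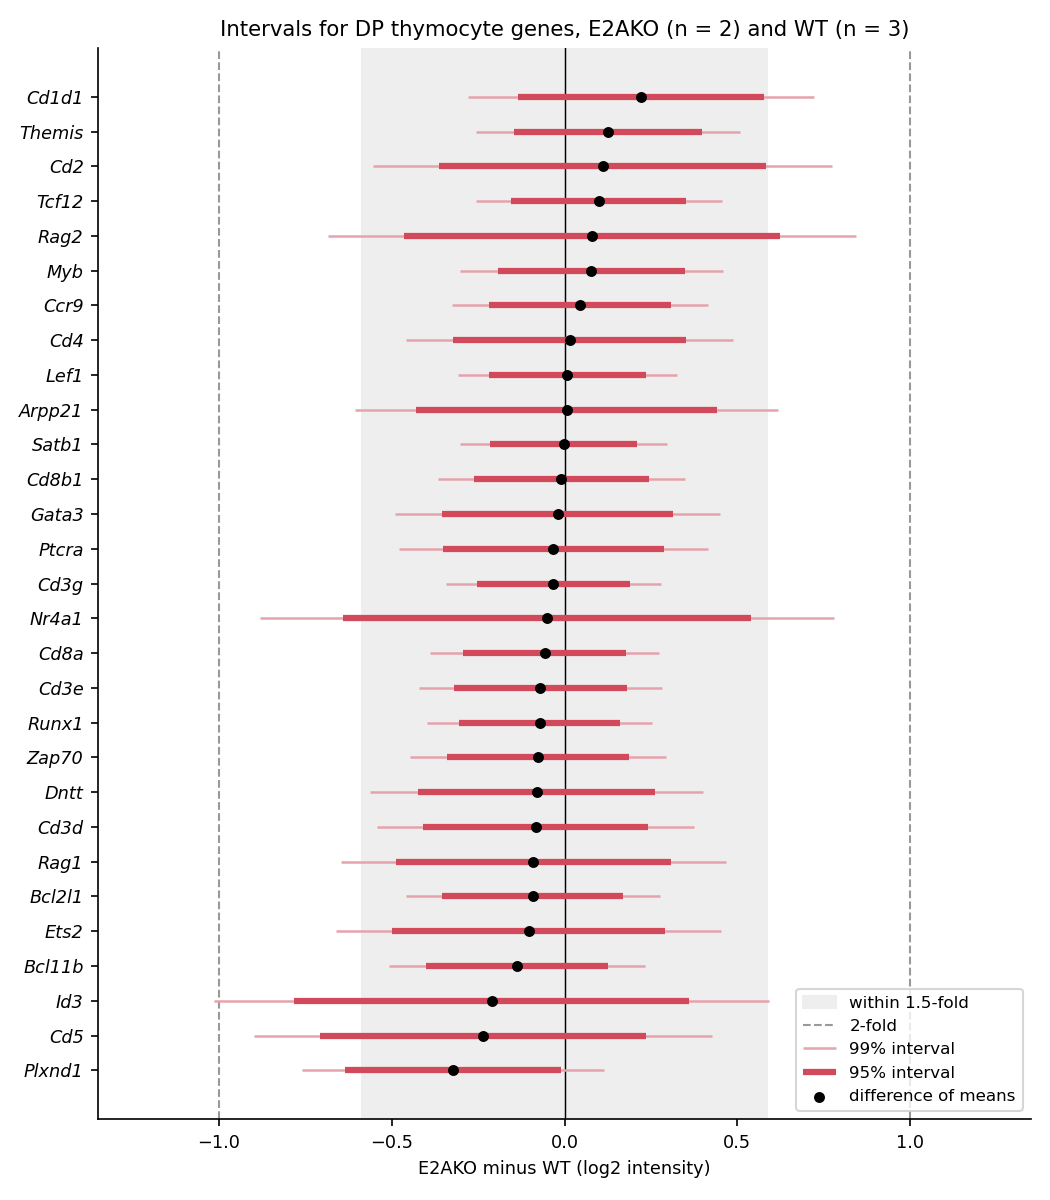
The difference of each of 29 DP-stage genes, E2AKO (n = 2) minus WT (n = 3) in log2 intensity, is drawn as a point with its 95% interval (thick) and 99% interval (thin) from the moderated spread. All 95% intervals end inside the dashed 2-fold lines, 24 end inside the grey 1.5-fold band, and that of Plxnd1 is the 1 that does not reach 0.

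The recombinase genes came first in this list. Rag1, whose protein cuts DNA at the receptor loci, read 13.64, 13.70 and 13.72 in WT and 13.61 and 13.58 in E2AKO. Its groups did not overlap, but the distance was small, -0.09 ± 0.18. A fall beyond 1.40-fold or a rise beyond 1.24-fold lay outside the 95% interval, so Rag1 in E2AKO lay between 71.4% and 124% of WT. Rag2, the partner subunit, read 10.81, 10.91 and 10.90 in WT and 10.97 and 10.93 in E2AKO, both of these above all 3 WT arrays. Its difference was 0.08 ± 0.25, and its interval ran from 72.5% to 154% of WT. The SD of Rag2 was 0.06 within WT and 0.02 within E2AKO. Both subunits thus sat on opposite sides of WT by less than these pooled SEs. Dntt, which adds untemplated bases at the joints, read 12.51, 12.69 and 12.67 in WT and 12.51 and 12.58 in E2AKO, between 74.5% and 120% of WT. All 13 tested genes of recombination and end joining were within 1.5-fold, with a median difference of 0.01. Xrcc5, which encodes the Ku80 end-binding subunit, was farthest up at 0.26 ± 0.14, and Hmgb2, a DNA-bending cofactor, farthest down at -0.22 ± 0.17.

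Coreceptor transcripts had narrow intervals. Cd4 read 12.27, 12.22 and 12.19 in WT and 12.29 and 12.19 in E2AKO, which overlapped. Its difference was 0.01 ± 0.15, and a fall beyond 1.25-fold or a rise beyond 1.28-fold lay outside the 95% interval. Cd8a read 13.09, 13.10 and 13.10 in WT and 13.00 and 13.08 in E2AKO. Both E2AKO arrays lay below WT, by a mean of 0.06 ± 0.11 log2 units, and the interval covered 81.5% to 113% of WT. Cd8b1, the other chain of the CD8 dimer, lay between 83.3% and 119% of WT. CD4 and CD8 were the sorting markers, so their levels also reflect how cells were chosen.

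Genes of the TCR complex and its signalling stayed near WT as well. The CD3 chains Cd3d, Cd3e and Cd3g differed by -0.08, -0.07 and -0.03 log2 units, and the lowest level inside any of their intervals was 75.3% of WT, for Cd3d. Ptcra, the invariant chain of the pre-TCR, lay between 78.4% and 122% of WT. Zap70, the kinase recruited to the phosphorylated receptor, lay between 79.0% and 114%, and Themis, an adaptor needed for positive selection, between 90.4% and 132%. All 24 tested genes of coreceptors and TCR signalling were within 1.5-fold, from -0.12 for Lat, the membrane adaptor, to 0.20 for Cblb, a ubiquitin ligase that restrains the receptor.

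Among these 29 genes, the largest changes still inside an interval belonged to genes that TCR signals induce. Cd5, a negative regulator of the receptor whose level follows its signal, read 10.38, 10.52 and 10.68 in WT and 10.04 and 10.54 in E2AKO. E2AKO 1 was the lowest array, and E2AKO 2 lay inside the WT range. The difference was -0.24 ± 0.22, and a fall of up to 1.63-fold lay inside the 95% interval. Id3, the Id protein that TCR signals raise, read 8.12, 8.33 and 8.01 in WT and 8.16 and 7.72 in E2AKO, with the lower value in the other mouse. Its difference was -0.21 ± 0.26, and a fall of up to 1.72-fold lay inside the interval. Nr4a1, an orphan nuclear receptor induced at once by TCR signals, lay between 64.1% and 145% of WT. Of 19 tested TCR-induced genes, 17 were within 1.5-fold and 0 had an unadjusted p under 0.05, and their median was -0.06.

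T-lineage transcription factors gave some of the tightest bounds. Satb1, a chromatin organiser, read 13.64, 13.60 and 13.64 in WT and 13.58 and 13.67 in E2AKO, and neither a fall beyond 1.16-fold nor a rise beyond that fold lay inside its interval. Lef1, an HMG-box factor, lay between 86.0% and 118% of WT, Myb, which sustains DP cells during rearrangement, between 87.5% and 127%, and Runx1 between 81.0% and 112%. Gata3 covered 78.2% to 124%. Bcl11b, needed for T cell commitment, read 11.66, 11.34 and 11.56 in WT and 11.41 and 11.34 in E2AKO, a difference of -0.14 ± 0.12 with 75.7% of WT as the lower limit. Ets2, an ETS-family factor, was lower in both E2AKO arrays than in all WT arrays, by 0.10 ± 0.18 log2 units, and lay between 70.7% and 122% of WT. Of the 20 T-lineage factors tested, 18 were within 1.5-fold; Rora and Runx3 were not shown to be.

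Survival and surface genes of the stage followed. Bcl2l1, whose long product Bcl-xL keeps DP cells alive, read 10.57, 10.51 and 10.65 in WT and 10.42 and 10.54 in E2AKO, a difference of -0.09 ± 0.12. A fall beyond 1.28-fold lay outside its interval. Cd1d1, which presents lipid to NKT cells, was the highest of the list at 0.22 ± 0.16 and lay between 91.0% and 149% of WT. Ccr9, a chemokine receptor of thymocytes, lay between 86.0% and 124%, Cd2 between 77.8% and 150% and Arpp21, an RNA-binding protein gene highly expressed at this stage, between 74.3% and 136%.

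Of these 29 genes Plxnd1 stood farthest from WT. It encodes plexin D1, a semaphorin receptor that guides thymocytes within the thymus. It read 10.97, 11.02 and 11.04 in WT and 10.70 and 10.67 in E2AKO, with no overlap. The difference was -0.32 ± 0.14, 79.9% of WT, with a 95% interval of 64.4% to 99.2%. It was not called (limma adjusted p = 0.998). In the whole list, groups did not overlap for 5 genes: Rag2 was higher in both E2AKO arrays and Rag1, Cd8a, Ets2 and Plxnd1 were lower. Over all genes 5.82% were higher and 10.6% lower without overlap, so a count of 1 and 4 in 29 was near the background.

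**Figure D3:**
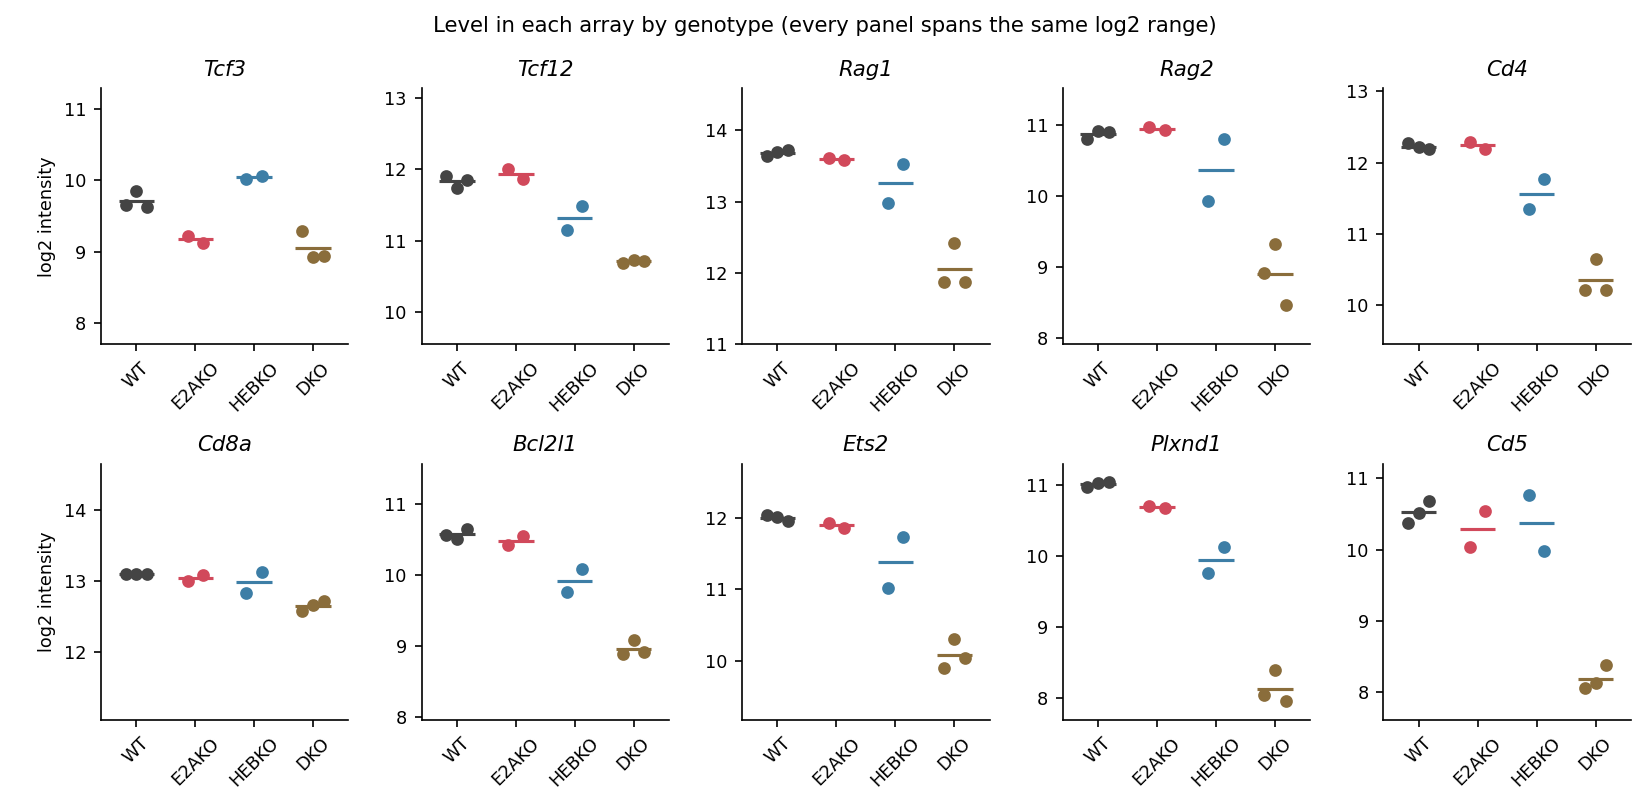
The log2 intensity of 10 genes in each array is plotted by genotype, with a line at the group mean and the same span of log2 units in every panel. For Tcf3 both E2AKO points lie below all WT points, for Cd4, Tcf12, Bcl2l1 and Cd5 the 2 groups overlap, and the DKO points lie below the E2AKO points in all panels but that of Tcf3, where 1 of 3 does not.

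The same DP-stage genes were then compared between E2AKO and the mice that also lacked HEB. This difference of means uses no WT array but shares the E2AKO arrays with the comparison above. Its SE and p rest on the spread pooled over all 10 arrays, WT included. DKO against E2AKO called 1191 genes, 9.07%, with 670 higher (5.1%) and 521 lower (3.97%). Of the 29 DP-stage genes 15 fell, 0 rose and 14 were not called. That list was drawn up with earlier results of these data known, so its share of calls cannot be set against that of all genes. Plxnd1 read 8.05, 8.40 and 7.95 in DKO, and fell by 2.56 ± 0.14 log2 units from E2AKO (limma adjusted p = 1.55e-06). Rag1 read 11.87, 12.41 and 11.86 in DKO and fell by 1.55 ± 0.18 (limma adjusted p = 2.70e-04). Cd4 read 10.21, 10.64 and 10.20 and fell by 1.89 ± 0.15 (limma adjusted p = 2.42e-05). Among the others called, Cd5 stood at -2.11 ± 0.22 in DKO minus E2AKO, Rag2 at -2.04 ± 0.25, Arpp21 at -1.90 ± 0.20, Ets2 at -1.82 ± 0.18 and Nr4a1 at -1.78 ± 0.27. Bcl2l1 stood at -1.52 ± 0.12, Myb at -1.47 ± 0.12, Id3 at -1.42 ± 0.26 and Dntt at -0.91 ± 0.16. Tcf12, itself deleted in DKO, fell by 1.23 ± 0.12. Cd8a and Gata3 were the least changed of those called, at -0.39 ± 0.11 and -0.54 ± 0.15. The CD3 genes, Zap70, Themis, Lef1, Satb1, Cd1d1 and Ccr9 were among those not called. Tcf3 was at -0.12 ± 0.13 between DKO and E2AKO (limma adjusted p = 0.688). The count of calls depended on single arrays, with 585 without E2AKO 1, 619 without E2AKO 2 and 775 without DKO 3.

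Both single knockouts were also set against each other, again with WT arrays entering only the pooled spread. HEBKO against E2AKO called 5 of 13138 genes, 0.0381%, and 0 of the 29 DP-stage genes. The 5, named after their values were seen, were Myzap, Fmnl2, Lrig1 and Gbp4, lower in HEBKO (0.0304% of genes) at -1.94, -1.62, -1.24 and -0.74 log2 units, and Atp8b4, higher (0.00761%). Atp8b4 read 5.54 and 5.55 in E2AKO, below the 40th percentile of both arrays, and 6.79 and 6.48 in HEBKO, so no size is given for it, and Myzap read 5.79 in HEBKO 2, below that percentile too. Without E2AKO 2 the count was 0, without E2AKO 1 or HEBKO 1 it was 1, without HEBKO 2 it was 55, and without 1 WT array or DKO 2 it ran from 2 to 10. Plxnd1 was at -0.75 (95% interval -1.09 to -0.40), Cd4 at -0.68 (-1.05 to -0.32), Tcf12 at -0.62 (-0.90 to -0.34) and Bcl2l1 at -0.56 (-0.85 to -0.27) in HEBKO minus E2AKO. Their adjusted p from limma were 0.0867, 0.114, 0.0794 and 0.102, so none passed. HEBKO 1 and 2 stood apart for several of these genes, for example at 12.98 and 13.53 for Rag1.

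Other gene groups were described by counts and medians, since their lists were drawn up with results of these data known. Over 311 list genes tested, 0 were called. Without the 4 sex-linked genes, 303 of 307 were within 2-fold and 265 within 1.5-fold, and 11 had an unadjusted p under 0.05, 3.58% beside 3.18% of all genes. All 10 housekeeping genes and all 12 glycolysis genes were within 1.5-fold. Of 17 apoptosis regulators 16 were within 1.5-fold. Bmf, a pro-death BH3-only gene, was the exception and read 8.95 in E2AKO 1 and 9.68 in E2AKO 2 against 9.52 to 9.71 in WT. Of 17 cell cycle control genes all were within 1.5-fold. Cdkn2c, an inhibitor of the kinases that pair with D cyclins, was higher in both E2AKO arrays than in WT, at 9.30 and 9.15 against 8.91 to 8.95, a difference of 0.30 ± 0.11 that was not called.

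Genes of the neighbouring stages were less tightly bounded. Of 10 tested Notch and pre-TCR genes 9 were within 1.5-fold. Il2ra, the receptor chain CD25 that marks an earlier stage, was the exception, at 6.33, 6.57 and 6.22 in WT and 6.90 and 6.86 in E2AKO, a difference of 0.50 ± 0.22. Of 22 DP-stage genes in a wider list 20 were within 2-fold. Dhrs3, a retinal reductase, read 11.14 to 11.22 in WT and 10.62 and 10.86 in E2AKO, -0.44 ± 0.32. Aqp11, an intracellular aquaporin, read 10.26 in E2AKO 1 and 11.09 in E2AKO 2 against 11.03 to 11.19 in WT. Of 20 genes of mature single-positive cells 18 were within 2-fold and 13 within 1.5-fold, with a median of -0.02. Il7r, the interleukin-7 receptor chain that returns after selection, was at 0.57 ± 0.34, but 4 of its 5 values lay below the 40th percentile of their arrays. In DKO against E2AKO, 17 of these 20 mature-stage genes rose and 0 fell, where 5.1% and 3.97% of all genes did. This list too was drawn up with results of these data known, so its share of calls cannot be set against that of all genes. Il7r was among those that rose, from a level that in E2AKO 1 was below the 40th percentile.

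Replication and mitosis genes varied between mice of the same genotype. Of 23 replication genes 17 were within 1.5-fold, and of 22 mitosis genes 15 were, while all were within 2-fold. Plk1, a mitotic kinase, read 9.90, 10.25 and 9.88 in WT and 10.04 and 9.36 in E2AKO. The median deviation of the mitosis genes from their WT means was 0.23 in WT 2 and -0.11 and -0.09 in WT 1 and WT 3. It was 0.20 in E2AKO 1 and -0.45 in E2AKO 2, values that include any difference between the genotypes. WT 2 and E2AKO 1 were the female mice by Xist and Y-linked genes, and WT 1, WT 3 and E2AKO 2 the male ones. By the same genes HEBKO 1, DKO 1 and DKO 3 were female and HEBKO 2 and DKO 2 male. Plk1 read 10.25 in HEBKO 1 and 10.51 in HEBKO 2, and 9.98, 10.12 and 9.44 in DKO 1 to 3. The part of sex in the spread of these lists was not tested.

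None of the 29 DP-stage genes was among the 56 genes not shown to lie within 2-fold, but Dhrs3 and Aqp11 of the wider DP-stage list were. The 56 included 4 sex-linked genes, 14 genes below the 40th percentile in some array, the receptor segments Trav14-1, Trav7n-5 and Trbv1, and small RNA genes such as Snord82, Snord73b and Snord47. The 4 genes that differed by over 2-fold rested on 1 E2AKO mouse each time. Ctse, an aspartic protease, read 7.36, 7.08 and 7.58 in WT, 10.96 in E2AKO 1 and 7.76 in E2AKO 2, and its mean difference was 2.02 ± 0.95. Gdpd3, a phosphodiesterase of glycerophospholipids, read 5.72, 5.80 and 5.80 in WT, 9.64 in E2AKO 1 and 5.51 in E2AKO 2. Rab6b, a small GTPase of vesicle traffic, read 8.69, 9.00 and 9.04 in WT, 6.60 in E2AKO 1 and 8.69 in E2AKO 2. Epsti1, an interferon-inducible gene, read 9.24, 9.35 and 9.67 in WT, 7.36 in E2AKO 1 and 9.30 in E2AKO 2. In each case E2AKO 1 stood apart and E2AKO 2 lay near the WT values. Kcnma1, a potassium channel gene, was the reverse, at 6.89 in E2AKO 2 and 4.53 in E2AKO 1 against 4.69 to 4.84 in WT.

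**Figure D4:**
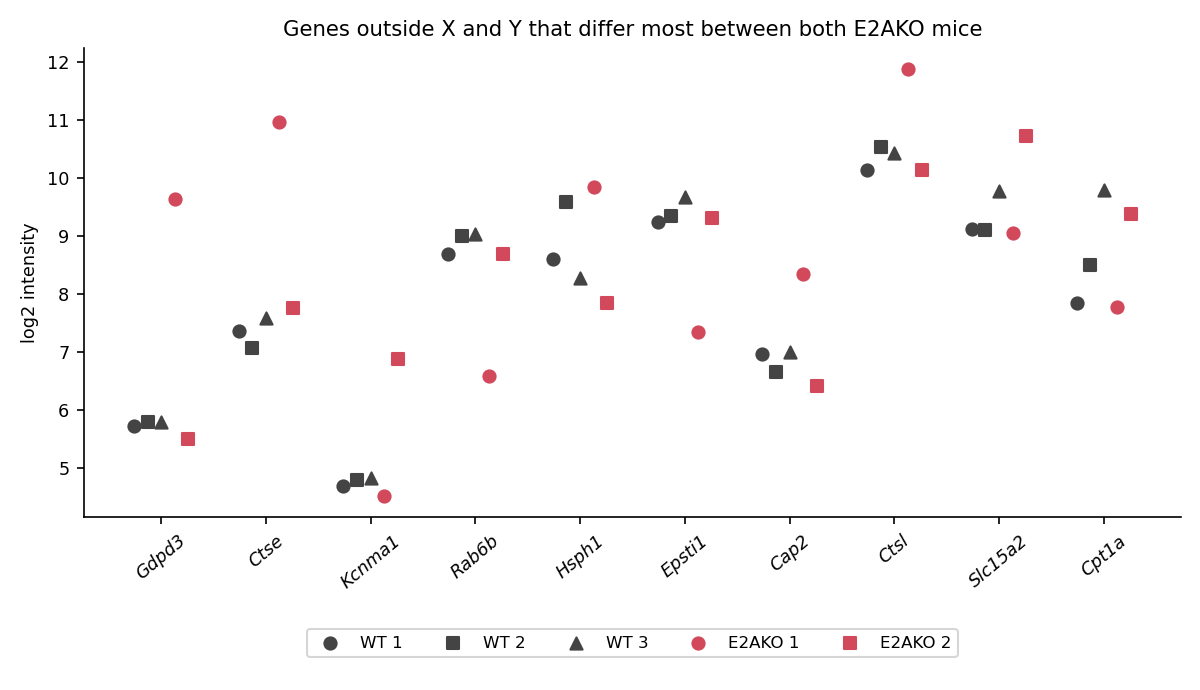
The log2 intensity of the 10 genes outside the X and Y chromosomes that differed most between both E2AKO mice is plotted for WT 1 to 3 (grey) and E2AKO 1 and 2 (red). Ctse, Gdpd3, Cap2 and Ctsl are high and Rab6b and Epsti1 low in E2AKO 1 alone, while Kcnma1 is high in E2AKO 2 alone.

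The spread between mice of 1 genotype was as large as that between genotypes. The SD over genes of the log2 difference between 2 arrays was 0.226 to 0.318 within WT, 0.265 within E2AKO and 0.173 to 0.298 between the groups. Of the 10 pairs of these 5 arrays the closest was WT 3 with E2AKO 2, where 3 genes differed by over 2-fold. E2AKO 1 and E2AKO 2 differed by over 2-fold for 41 genes, 34 of them outside the X and Y chromosomes.

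With sex-linked, clone, predicted and Rik genes passed over, the genes with the smallest p showed differences in both mice. Cldn4, a tight-junction claudin, read 8.30, 8.58 and 8.36 in WT and 7.55 and 7.86 in E2AKO, a difference of -0.71 ± 0.14 (limma adjusted p = 0.998). It read 7.25, 7.10 and 7.12 in DKO, and fell by 0.55 log2 units from E2AKO to DKO (limma adjusted p = 0.0256). Smim5, a small membrane protein gene, was at -0.56 ± 0.11 and Krtap5-2, a keratin-associated protein gene, at -0.70 ± 0.14. Both were dim in E2AKO 1 and 2. Smim5 read 6.10 and 5.94 there, the second below the 40th percentile of its array, and Krtap5-2 read 6.28 and 6.22. Zfp781, a zinc-finger gene, was higher, at 0.64 ± 0.15. Besides Ctse and Zfp781, the largest rises without overlap were Plod2 (0.83), a collagen hydroxylase, Snord73b (0.72), Snord47 (0.70), Nav2 (0.70), Zfp617 (0.61), Dnajb9 (0.58), an endoplasmic reticulum co-chaperone, Cd1d2 (0.56), a close copy of Cd1d1 whose signal may be shared with it, and Rnu3a (0.54). The largest falls without overlap, after Rab6b, Cldn4 and Krtap5-2, were Olfr767 (-0.65), Pip5k1b (-0.62), a lipid kinase, Olfr1347 (-0.60), Cplane2 (-0.60), Ankrd6 (-0.59), Tcf3 and Smoc1 (-0.53), a secreted matrix protein gene. Smoc1 read 8.97 to 9.31 in WT and 8.82 and 8.29 in E2AKO, and fell by a further 2.14 log2 units from E2AKO to DKO. None of these passed the test over all genes in E2AKO.

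Dim genes lay slightly lower in E2AKO as a whole. With genes cut into 5 equal bands by mean level, the median difference was -0.08 in the dimmest band and 0.02 in the brightest. The share of genes with an unadjusted p under 0.05 was 4.30% in the first and 1.45% in the last. Of the marker lists for other cells, that of thymic epithelium stood lower. The summed intensity of 12 thymic epithelial markers was 1729 to 1878 in WT and 1471 to 1601 in E2AKO, without overlap. Of these 12, 6 lay above the 40th percentile in all 5 arrays (Krt8, Ccl25, Cldn3, Cldn4, Aire and Ly75) and 2 lay below it in all 5 (Krt5 and Psmb11, which mark medullary and cortical epithelium). Cldn4 and Aire were the 2 with an unadjusted p under 0.05. Cldn4 was farthest down (-0.71), Ly75 did not fall (0.01), and Ccl25 in both E2AKO arrays lay inside the WT range. Cldn4 also read below every WT array in HEBKO (7.25 and 7.55) and in DKO. In bulk RNA, fewer cells of a type and less RNA per cell cannot be told apart, and the part of such cells in the values of Cldn4 was not tested. The summed level of 9 B cell markers was 679 to 736 in WT and 608 to 708 in E2AKO. Of these, 4 lay above the 40th percentile in all 5 arrays (Cd79b, Pax5, Vpreb1 and Igll1) and 4 below it in all 5 (Cd79a, Ms4a1, Ebf1 and Cd22). That of 10 myeloid markers was 1166 to 1572 in WT and 1224 to 1616 in E2AKO, with 4 above it in all 5 (Itgam, Cd68, Cst3 and C1qa) and 6 below it in all 5, Lyz2, Csf1r and Adgre1 among them. For 9 dendritic cell markers, with Zbtb46 and Batf3 above it in all 5 and Itgax, Siglech, H2-Aa and Cd74 below it in all 5, the ranges were 587 to 693 and 565 to 591.

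Promoters were last compared by their preferred E-boxes, as a description. Over 10417 tested genes with a window, the median difference was -0.01 for 7266 genes with none, -0.03 for 2527 genes with 1 and -0.04 for 624 genes with 2 or more. The median level of these groups went down in the same order, 8.06, 7.72 and 7.24, and dim genes lay lower in E2AKO as given above. Among genes above the median level the 3 values were 0.02, 0.01 and -0.00. Rag1 and Cldn4, each with 2 preferred forms in the windows printed above, differed by -0.09 and -0.71.

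**Figure D5:**
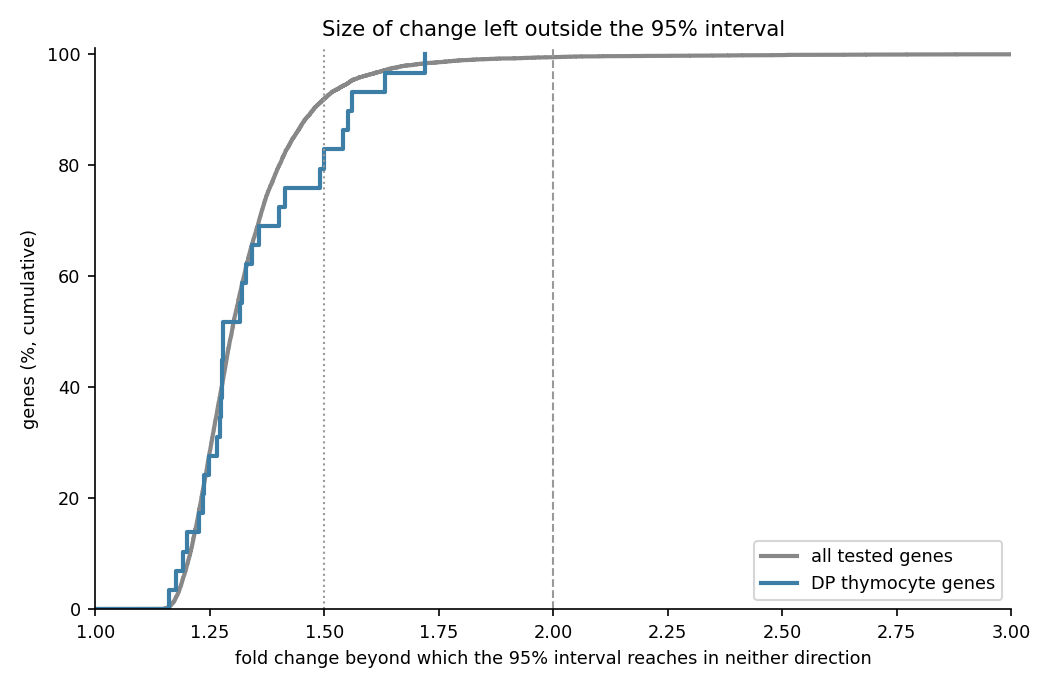
The cumulative percentage of genes (vertical axis) is drawn against the fold change beyond which the 95% interval of E2AKO minus WT reaches in neither direction (horizontal axis, drawn to 3-fold), for all 13138 genes tested (grey) and the 29 DP-stage genes (blue). The medians stand at 1.30-fold and 1.28-fold, and 24 of the 29 DP-stage genes lie at or below the dotted line at 1.5-fold, beside 91.9% of all genes.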

How the data were processed

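RNA of sorted DP thymocytes from 10 mice was measured on Affymetrix arrays, 1 array per mouse. The deposited values are linear intensity values that the authors made by RMA, per the submitters' processing notes (background correction, normalisation between arrays and 1 value per probe set), with no version given. They were turned into log2 values with no constant added. The table held 34760 probe sets. A single symbol was attached to 21640 of them, several to 1321 and none to 11799, and the last 2 kinds were not used for genes. For arrays, their number limits the precision, here 2 against 3.

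A mean per genotype was fitted over all 10 arrays with limma 3.58.1 (lmFit, eBayes) in R 4.3.3, since 2 arrays of a group leave too little spread alone. Residual degrees of freedom were 6, prior ones 5.68, and the median gene SD was 0.14. Tests are two-sided with Benjamini-Hochberg adjustment over 13138 genes and a calling threshold of 0.05. Equivalence was tested by 2 one-sided moderated tests against 2-fold and 1.5-fold. The steps were tested on simulated data. The members, gene lists and named genes were chosen with earlier results of these data known. The rule named Tcf3, Tcf12, the DP-stage list, the 10 largest rises and falls without overlap above the 40th percentile in all 5 arrays, the 5 smallest p (sex-linked, clone, predicted and Rik genes passed over) and up to 3 members of each list. Genes named because they differed between both E2AKO mice, genes not shown within 2-fold, members named as exceptions in their list, and the 5 genes of HEBKO against E2AKO lie outside it, picked once their values were known. Promoter windows are RefSeq's, build GRCm38.p6.

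Alternatives were the intensity filter, normalisation, probe set choice, the form of the model, array weights, a sex term, a replicate block and leaving out each array.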

Additional observations from a re-analysis of the deposited data

How the results depend on the processing

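No gene was called for E2AKO against WT in 20 of 21 alternatives. The replicate number as a block called 1 gene, Eid3 (limma adjusted p = 0.0466), with the numbers not shown to pair the samples: deviations of same-numbered arrays correlated at -0.02 and -0.29 between WT and E2AKO, at 0.15 in both pairs of E2AKO and HEBKO, and from 0.0077 to 0.48 in the other pairs of groups. The smallest adjusted p among alternatives without a call was 0.110. The count of genes with an unadjusted p under 0.05 ran from 236 (60th percentile filter) to 968 (without WT 2), and was 850 with array weights and 925 with the block. Genes shown within 2-fold came to 12971 to 13091 with 1 array left out, and to 19880 of 19937 with no filter, where more genes were tested. The share within 2-fold ran from 98.7 to 99.7%. The share within 1.5-fold ran from 81.2 to 96.6% and was lowest with 1 E2AKO array. All 29 DP-stage genes stayed within 2-fold in every alternative but 1, in which Id3 was not shown to be (without E2AKO 1), and 22 to 29 were within 1.5-fold. Their 609 recomputed differences included 0 calls. Tcf3 ran from -0.59 to -0.47, with adjusted p of 0.656 to 1.00. With all 34760 probe sets, an alternative chosen after seeing the data, 0 were called (smallest limma adjusted p 0.0544, 1588 at an unadjusted p under 0.05). Of these 1588, 963 were among the 13120 probe sets without a single symbol, as was the smallest adjusted p. DKO against E2AKO called 585 to 1293 genes with 1 array left out. HEBKO against E2AKO called 0 to 55 with 1 array left out, 3 with arrays shifted to 1 median or only the groups compared, 22 with trend and robust eBayes, 17 with a sex term and 86 with the block; the cause was not tested. Signal near background limits what dim genes can show.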
